A study of Mus musculus with 4 samples.

Results

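Genes that let mammary cells sense hormones were followed across 4 RNA libraries of cultured mouse mammary cells. The set held 8 genes, taken by symbol from the 54446 genes in the expression table: the receptors Esr1, Pgr and Prlr, the transcription regulators Foxa1, Gata3 and Cited1, and the hormone targets Tnfsf11 and Greb1. Of the 8 genes, 7 had a level above 0 in all 4 libraries, and Tnfsf11 did not.

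Oestrogen and progesterone act in the mammary gland on a subset of luminal cells that carry their nuclear receptors, and these receptors bind DNA once their ligand is bound. Foxa1 and Gata3 are transcription factors that open chromatin for the oestrogen receptor and maintain luminal identity, and hormone-sensing cells relay the signal to neighbouring cells through secreted factors such as RANKL. Prolactin acts through a receptor at the cell surface and the kinase Jak2 on Stat5, which drives alveolar differentiation and milk protein genes.

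The cells were sorted by flow cytometry from mammary glands of wild type C57BL/6 mice, embedded in Matrigel for 3D culture, and given DMSO as the control or 100 μM baicalin, a flavonoid from Scutellaria roots. There was 1 library each for cells labelled basal with DMSO, basal with baicalin, luminal with DMSO and luminal with baicalin. The labels give no age for the mice, no number of animals and no length of treatment. For primary cells in general, the study's methods name female mice and an age range in weeks. Days of culture are given there for the scoring of colonies, and neither is tied to these libraries. The study's methods list insulin-transferrin-selenium and EGF as additions to the medium, and no oestrogen, progesterone or prolactin is listed there. With 1 library per condition there were no replicates, so no test between conditions was possible and no p-value is given. Levels are FPKM, fragments scaled to exon length and to library depth, and 19356082 to 20648770 fragments lay behind each library. The 95% intervals come from the fragments recovered for each gene, exact for levels and ratios and approximate for differences of log2 ratios. They cover counting error only, because PCR copies are not independent molecules and the variation between cultures was not measured.

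The libraries went against their labels in the markers of basal cells and in the luminal keratin and epithelial markers. All 10 markers of basal (myoepithelial) cells, such as the keratin Krt5 and the smooth muscle actin Acta2, had their higher value in the luminal-labelled library of each pair, with DMSO and also with baicalin. Their summed level was 1761 FPKM in the basal-labelled DMSO library, 479 in the basal-labelled baicalin library, 5404 in the luminal-labelled DMSO library and 7199 in the luminal-labelled baicalin library. The 10 luminal keratin and epithelial markers, Krt8 and Krt18 among them, summed to 4373 and 3022 FPKM in the basal-labelled libraries and to 1248 and 1053 FPKM in the luminal-labelled ones. Other luminal genes were divided between the labels. With DMSO, 5 of the 7 genes of the set above 0 in all libraries were higher beyond counting error in the luminal-labelled library. The set had 1 gene lower, and of 6 alveolar markers 2 were higher and 3 lower. Of all genes 30.5% were higher and 30.2% lower. The libraries are therefore named by their labels throughout, and no lineage is inferred from a label. Summed fibroblast markers lay between 3.08 and 16.7 FPKM and summed endothelial markers between 0.909 and 3.99 FPKM. The 7 immune markers summed to 16.4, 53.6, 5.41 and 16.4 FPKM in the same order of libraries, nearly all of it from Cd68 and Lyz2, while the leukocyte marker Ptprc lay at or below 0.0138 FPKM.

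The receptors for oestrogen and progesterone were highest in the luminal-labelled DMSO library and were lower with baicalin there. Esr1, the oestrogen receptor alpha (ENSMUSG00000019768, chr10:4611593-5005614, plus strand, GRCm38), was at 0.992 FPKM in the basal-labelled DMSO library, 0.982 in the basal-labelled baicalin library, 1.44 in the luminal-labelled DMSO library and 0.723 in the luminal-labelled baicalin library. The 2 basal-labelled libraries did not differ beyond counting error (ratio of baicalin to DMSO 0.990, 95% interval 0.833 to 1.18). In the luminal-labelled libraries the ratio was 0.502 (0.421 to 0.597), from 381 fragments with DMSO and 204 with baicalin. The order of the 4 libraries for Esr1 thus ran from luminal-labelled DMSO, through both basal-labelled libraries, to luminal-labelled baicalin at the bottom.

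Pgr, the progesterone receptor (ENSMUSG00000031870, chr9:8899833-8968611, plus strand), which is itself induced by oestrogen, was at 1.08 FPKM in the basal-labelled DMSO library and 0.911 in the basal-labelled baicalin library. The luminal-labelled libraries held 4.81 FPKM with DMSO and 2.09 FPKM with baicalin, and both lay above the basal-labelled pair. With baicalin, Pgr was 2.31-fold lower in the luminal-labelled libraries (2.04 to 2.62), and its ratio in the basal-labelled libraries was 0.845 (0.679 to 1.05), within counting error. In these bulk samples, fewer cells that express a gene and less of its RNA per cell cannot be told apart, here and for every gene below.

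Prlr, the prolactin receptor (ENSMUSG00000005268, chr15:10177238-10349180, plus strand), had another order. Its level was 6.50 FPKM in the basal-labelled DMSO library, 2.40 in the luminal-labelled DMSO library, 1.60 in the basal-labelled baicalin library and 0.688 in the luminal-labelled baicalin library, and every step in this order exceeded counting error. Prlr was the only one of the 7 genes above 0 in all libraries whose level was lower with baicalin by more than 1 on the log2 scale under both labels. It was 4.06-fold lower in the basal-labelled libraries (3.68 to 4.49) and 3.48-fold lower in the luminal-labelled ones (2.99 to 4.07). Of the 15339 exon bases of Prlr, 203 also belong to the gene model Gm21973, which was listed at 0 in all 4 libraries.

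All 3 transcription regulators had their highest level in the luminal-labelled DMSO library. Foxa1, a forkhead pioneer factor (ENSMUSG00000035451, chr12:57540628-57546916, minus strand), reached 9.30 FPKM there, against 1.80 in the basal-labelled DMSO library, 1.35 in the basal-labelled baicalin library and 1.09 in the luminal-labelled baicalin library. The latter pair did not differ beyond counting error (ratio 1.24, 0.8999 to 1.70), so the large gap between the labels with DMSO was not seen with baicalin. In the luminal-labelled libraries Foxa1 was 8.52-fold lower with baicalin (6.69 to 10.98), from 599 fragments with DMSO and 75 with baicalin.

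Cited1, a transcriptional cofactor of the oestrogen receptor (ENSMUSG00000051159, chrX:102247381-102252181, minus strand), was at 7.36 FPKM in the luminal-labelled DMSO library and at 0.580 in the luminal-labelled baicalin library, from 250 and 21 fragments. The basal-labelled libraries held 2 fragments (0.0574 FPKM) with DMSO and 6 fragments (0.169 FPKM) with baicalin, which did not differ beyond counting error. Cited1 was 12.7-fold lower with baicalin in the luminal-labelled libraries (8.13 to 20.9). By the Euclidean distance between centred log2(FPKM + 1) profiles over the 4 libraries, Foxa1 and Cited1 were each other's nearest gene within the set, at 0.902, and so were Esr1 and Greb1, at 0.360. Low levels give short distances on this scale.

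Gata3, a zinc finger factor of the luminal lineage (ENSMUSG00000015619, chr2:9857078-9890034, minus strand), was the most abundant of the 8 genes. Its highest level was 2.06 times its lowest, against 1.99 for Esr1 and 128 for Cited1. It was at 18.0 FPKM in the basal-labelled DMSO library, 24.8 in the basal-labelled baicalin library, 37.2 in the luminal-labelled DMSO library and 31.9 in the luminal-labelled baicalin library. These levels exceeded those of 82.9% to 93.2% of the 17787 genes with a level above 0 in all libraries. With baicalin the ratio was 1.37 (1.28 to 1.47) under the basal label and 0.859 (0.815 to 0.906) under the luminal label, so the directions were opposite. Of the exon bases of Gata3, 5.83% are shared with the antisense model Gm13256, listed at 0 in all libraries, and with 9230102O04Rik on the same strand, at 1.08 to 2.38 FPKM.

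The hormone targets in the set were scarcely expressed. Tnfsf11, which encodes RANKL, a paracrine mediator of progesterone (ENSMUSG00000022015, chr14:78277445-78308043, minus strand), had 0, 2, 0 and 3 fragments in the basal-labelled DMSO, basal-labelled baicalin, luminal-labelled DMSO and luminal-labelled baicalin libraries. No value exceeded 3 fragments, which correspond to 0.0650 to 0.0693 FPKM for this gene, so no fold is given and no difference was detectable at this depth. Greb1, an oestrogen-induced cofactor of the oestrogen receptor (ENSMUSG00000036523, chr12:16670615-16800886, minus strand), was at 0.337, 0.0772, 0.248 and 0.167 FPKM in the same order of libraries. Its ratio of baicalin to DMSO was 0.229 (0.121 to 0.407) under the basal label, from 64 and 15 fragments, and 0.672 (0.417 to 1.07) under the luminal label, within counting error. The antisense model Gm48140 covers 7.68% of the exon bases of Greb1 and was listed at 0 in all 4 libraries.

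**Figure D1:**
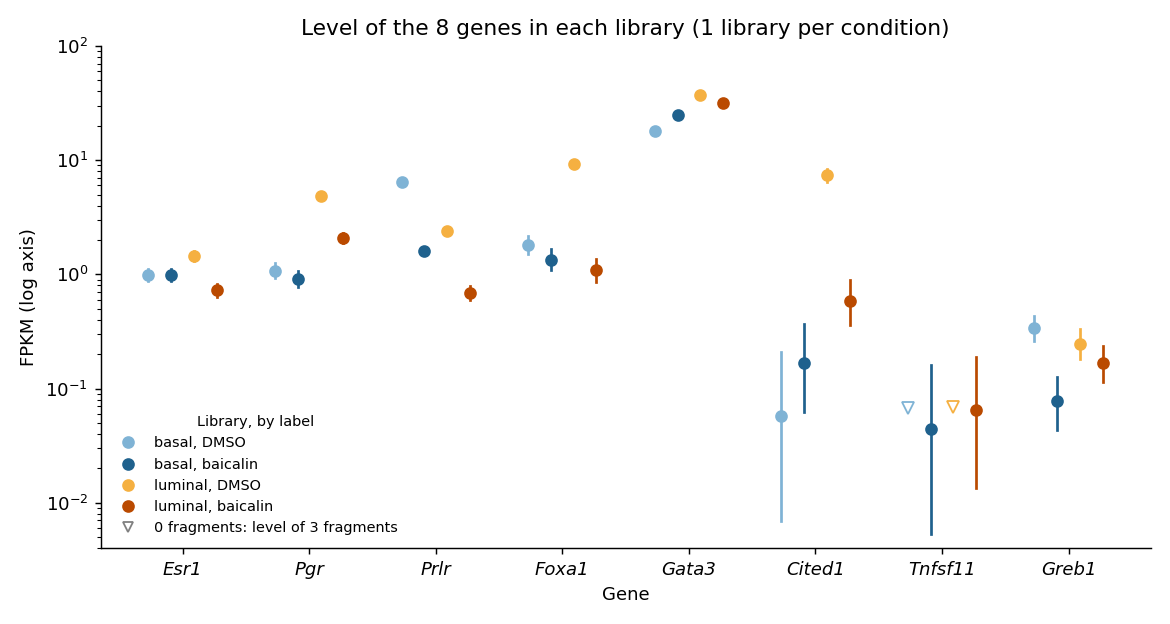
Level of each of the 8 genes in the 4 libraries (FPKM, log axis), with points for the values, bars for the 95% counting interval and open triangles for the level that 3 fragments would give where 0 were counted. Cited1 and Foxa1 are high in the luminal-labelled DMSO library, at 7.36 and 9.30 FPKM, and Prlr is highest in the basal-labelled DMSO library, at 6.50 FPKM.

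For a comparison across genes, the change was taken as log2((FPKM + 1)/(FPKM + 1)), a scale on which differences between low levels shrink, and a change above 1 or below -1 was called past the fold. In the basal-labelled libraries, Prlr (-1.53) was the only member lower past the fold with baicalin, where 3.33% of the 17787 genes were lower, and no member was higher, where 2.15% of all genes were. Outside their counting interval, Gata3 was higher, against 28.1% of all genes, and Prlr, Foxa1 and Greb1 were lower, against 26.3% of all genes. The ratio of Foxa1 had an interval of 0.563 to 0.992 that ended just below 1. The median of the 7 members was -0.12 and that of all genes 0.01.

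In the luminal-labelled libraries all 7 members had a lower value with baicalin than with DMSO, as did 9670 of the 17787 genes. Cited1 (-2.40), Foxa1 (-2.30) and Prlr (-1.01) were lower past the fold, against 1.59% of all genes, and no member was higher, against 2.37%. Pgr (-0.91), Esr1 (-0.50) and Gata3 (-0.21) did not pass the fold but were lower beyond counting error, which made 6 of 7 members, against 28.7% of all genes. No member was higher beyond counting error, against 22.9% of all genes. The change of Cited1 had only 24 genes of 17787 below it, and that of Foxa1 only 31. Prlr had 274 and Pgr 368 genes with a larger drop, and after centring on the median ratio of all genes Prlr, at -0.99, no longer passed the fold. The median of the members was -0.91 and that of all genes -0.02.

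Other cell type markers moved beside these values, and their part in the drop of the hormone-sensing genes was not tested. Between the luminal-labelled libraries, 8 of the 10 luminal keratin and epithelial markers were lower with baicalin beyond counting error, against 28.7% of all genes. Among them Krt19 was at 105 and 25.0 FPKM, while Cldn4 was higher at 45.9 and 136 FPKM. Of the 10 basal markers, 5 were higher and 5 lower, with 1 higher and 3 lower past the fold and a median of -0.16. The oxytocin receptor Oxtr was at 19.4 FPKM with DMSO and 3.61 FPKM with baicalin, the smooth muscle calponin Cnn1 at 11.7 and 3.43 FPKM, and Krt17 at 358 and 1140 FPKM. The alveolar markers Csn3 (4.54 and 0.0933 FPKM) and Kit (6.59 and 0.957 FPKM) were lower and Aldh1a3 (46.4 and 163 FPKM) was higher. The alveolar markers summed to 154 and 247 FPKM in these libraries and to 270 and 178 FPKM in the basal-labelled pair, and the milk protein gene Wap was at 0 in all 4. Most of each sum came from Aldh1a3 and Mfge8, the latter at 84.4 and 77.0 FPKM in the luminal-labelled libraries. Of the 6 alveolar markers above 0 in all libraries, 2 were higher and 4 lower under the luminal label, with a median of -0.49. In the basal-labelled libraries 9 of 10 basal markers were lower with baicalin, led by Krt5 at 128 and 3.01 FPKM. Of the 10, 7 were lower beyond counting error and 3 lay within it. Among the luminal keratin and epithelial markers 7 of 10 were lower, each beyond counting error. Of all 17787 genes, 8728 were lower under this label, and 26.3% of all genes were lower beyond counting error. Cd68, a lysosomal macrophage marker, was higher with baicalin under both labels, at 7.49 and 51.5 FPKM and at 4.44 and 13.7 FPKM. Lyz2, a lysozyme of macrophages and the other of the 2 immune markers above 0 in all libraries, was lower under the basal label, at 8.84 and 2.17 FPKM, and higher under the luminal label, at 0.903 and 2.61 FPKM.

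**Figure D2:**
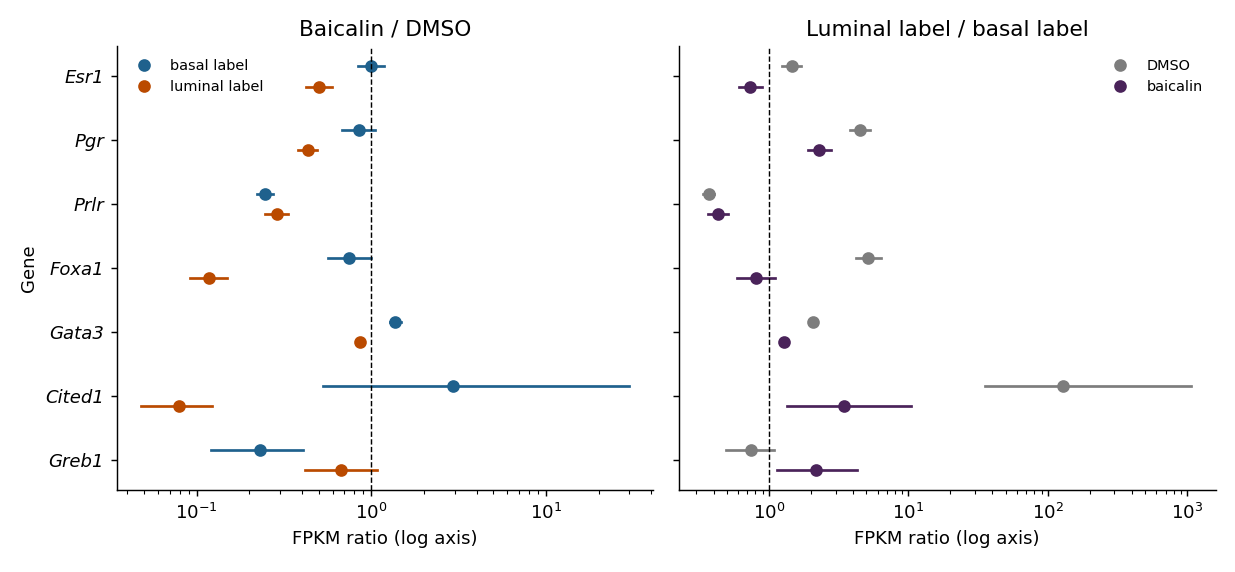
FPKM ratios of the 7 genes above 0 in all libraries (log axis), with 95% counting intervals as bars and a dashed line at a ratio of 1. On the left, the baicalin to DMSO ratios of Foxa1 and Cited1 separate by label, whereas those of Prlr, 0.246 and 0.287, lie side by side, and on the right the label ratios of Cited1, Foxa1 and Pgr are nearer to 1 with baicalin than with DMSO.

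Whether the response to baicalin depended on the label was described by the difference of the log2 ratios, luminal label minus basal label, for the 6 genes with at least 10 fragments in every library. The difference was -2.67 for Foxa1 (-3.20 to -2.15), -0.98 for Esr1 (-1.33 to -0.63) and -0.96 for Pgr (-1.32 to -0.61). These 3 genes thus had a lower ratio under the luminal label than counting error alone allows. Gata3 had a difference of -0.68 (-0.80 to -0.55) and Greb1 one of 1.55 (0.52 to 2.59). For Prlr the difference was 0.22, with an interval of -0.04 to 0.48 that includes 0. These intervals are approximate, and for Greb1 the fewest fragments in a library were 15. They compare the libraries and not the conditions, since no culture was repeated.

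**Figure D3:**
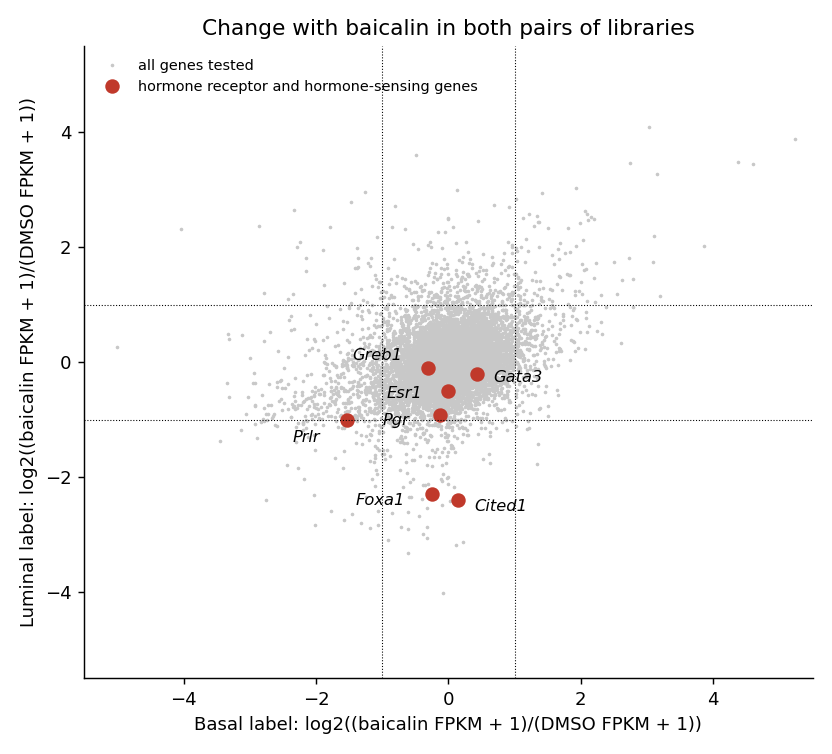
Change with baicalin in the basal-labelled libraries (x axis) and the luminal-labelled libraries (y axis), both as log2 of the ratio of FPKM + 1, for 17787 genes in grey and the 7 members above 0 in all libraries in red. Dotted lines mark a change of 1 in either direction, and Foxa1 and Cited1 lie at -2.30 and -2.40 on the y axis near 0 on the x axis, while Prlr lies below -1 on both.

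Promoter sequences of the members were taken from RefSeq (GRCm38.p6), where all 8 genes matched with 14 start sites. Each window of 250 bases before and 50 bases after the start was searched on both strands for GGTCA, the core of an oestrogen response element, for TGTTTAC, a forkhead motif, and for the GATA motif AGATAA. No matches in the members' windows overlapped. GGTCA or its reverse complement was found in 7 of the 14 windows, from 5 genes, and in 40.5% of all 32851 promoters. The forkhead motif was found in 2 windows, those of Foxa1 and Prlr, and in 3.65% of all promoters, and AGATAA in 0 windows and in 11.2% of all promoters. A match describes the letters only, and a window without one says only that these letters are not in it.

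The 250 bases before the start are shown for a start site of each of the 3 members past the fold with baicalin, 5′ to 3′ along the gene, with the motifs in capitals. Foxa1 has 1 start site in the table, and Prlr and Cited1 have 3 each, of which sites with a motif are shown. The other 2 windows of Prlr held none of the motifs, and of the other 2 of Cited1 one held GGTCA or its reverse complement and one held none. For Foxa1 (chr12:57546112-57546361, minus strand), 240 of the bases are intronic and 10 exonic in a longer gene model, and the window holds GGTCA 210 bases and the forkhead motif 141 bases before the start. For Cited1 (chrX:102252182-102252431, minus strand), the stretch lies outside the gene and holds the reverse complement of GGTCA 189 bases before the start. For Prlr (chr15:10223656-10223905, plus strand), the stretch is intronic to a longer gene model and holds the forkhead motif 215 bases before the start. The bases after this Prlr start were not found in the GENCODE transcripts of the members. Those after the shown starts of Foxa1 and Cited1 were found there.
Foxa1: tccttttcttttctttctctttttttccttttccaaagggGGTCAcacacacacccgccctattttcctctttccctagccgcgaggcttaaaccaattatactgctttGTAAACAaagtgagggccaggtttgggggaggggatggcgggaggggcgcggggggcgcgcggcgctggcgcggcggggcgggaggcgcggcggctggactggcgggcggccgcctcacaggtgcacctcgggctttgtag
Cited1: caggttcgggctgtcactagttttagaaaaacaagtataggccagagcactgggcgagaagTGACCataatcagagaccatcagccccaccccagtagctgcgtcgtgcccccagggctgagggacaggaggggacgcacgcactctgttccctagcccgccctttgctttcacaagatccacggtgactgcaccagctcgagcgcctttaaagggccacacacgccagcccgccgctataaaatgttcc
Prlr: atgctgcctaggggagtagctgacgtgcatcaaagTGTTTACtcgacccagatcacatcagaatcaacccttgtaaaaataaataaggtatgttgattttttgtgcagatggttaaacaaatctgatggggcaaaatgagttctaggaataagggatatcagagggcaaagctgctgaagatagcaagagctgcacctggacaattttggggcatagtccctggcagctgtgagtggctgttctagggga

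Past the fold, members differed between the labels with DMSO but not with baicalin, while 6 of 7 differed beyond counting error in each comparison. In the luminal-labelled DMSO library Cited1 (2.98 on the log2 scale), Foxa1 (1.88), Pgr (1.48) and Gata3 (1.003, just past the fold) were higher past the fold than in the basal-labelled DMSO library, against 4.71% of all genes. Prlr (-1.14) was lower, against 3.86% of all genes. Gata3 no longer passed the fold on TPM (0.92) or after centring (0.99). As plain ratios, Foxa1 was 5.16-fold higher (4.23 to 6.34) and Pgr 4.46-fold higher (3.79 to 5.27), and the ratio of Cited1 was 128 (35.1 to 1065) over only 2 fragments in the basal-labelled library. Beyond counting error 5 members were higher, Esr1 included, against 30.5% of all genes, and 1 was lower, against 30.2%. Greb1 lay within counting error here, though not with baicalin.

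With baicalin no member differed past the fold between the labels, where 5.24% of all genes were higher and 2.99% lower in the luminal-labelled library. This rested on the pseudocount of 1, since without it Cited1, Greb1 and Pgr were higher past the fold and Prlr was lower. Beyond counting error, Pgr (ratio 2.29, 1.89 to 2.77), Gata3 (1.29, 1.22 to 1.37), Cited1 (3.44, 1.34 to 10.4) and Greb1 (2.16, 1.14 to 4.28) were higher, against 25.8% of all genes. Esr1 (0.737, 0.611 to 0.887) and Prlr (0.430, 0.365 to 0.505) were lower, against 33.7%, and Foxa1 was within counting error. The median of the members was 1.003 with DMSO and 0.12 with baicalin, and that of all genes 0.01 and -0.03. The label comparisons share their libraries with the baicalin comparisons, so the values are not independent of one another.

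**Figure D4:**
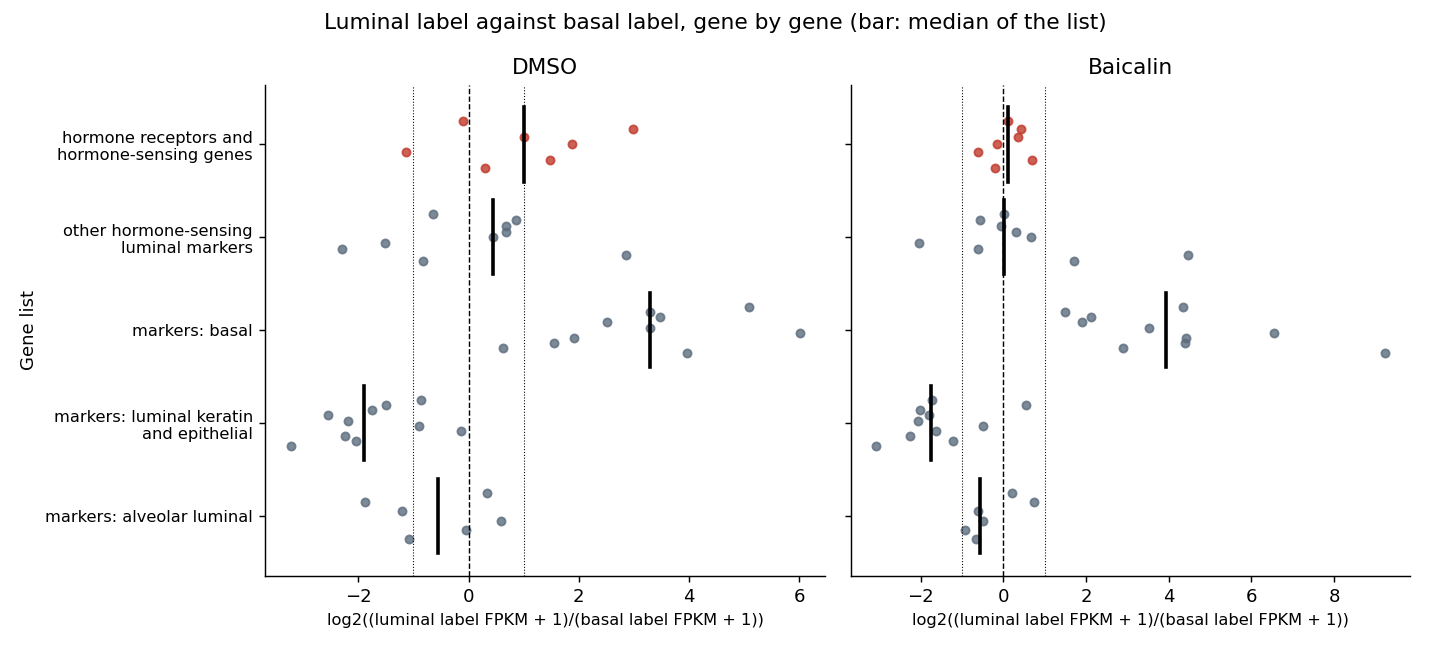
Difference between the labels (log2 of the ratio of FPKM + 1, luminal over basal) for each gene of 5 lists, with DMSO on the left and baicalin on the right, and a bar at the median of each list. The basal markers lie to the right in both panels, with medians of 3.29 and 3.94, the luminal keratin and epithelial markers lie mostly to the left, and the members move from a median of 1.003 to 0.12.

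For the related genes, each pair of FPKM values gives DMSO and then baicalin. Past the fold with baicalin, 2.15% of all genes were higher and 3.33% lower under the basal label. Under the luminal label 2.37% were higher and 1.59% lower. Of 10 other steroid and related receptors, 8 were above 0 in all libraries, and 0 were past the fold with baicalin under the basal label. Under the luminal label 0 were higher and 1 lower, the mineralocorticoid receptor Nr3c2 (3.03 FPKM with DMSO and 0.793 with baicalin). The glucocorticoid receptor Nr3c1 had 11.04 and 15.6 FPKM in the basal-labelled libraries and 18.7 and 16.4 FPKM in the luminal-labelled ones. The second oestrogen receptor, Esr2, reached at most 0.273 FPKM. Esrra, an oestrogen-related receptor without a known oestrogen ligand, was higher with baicalin beyond counting error under both labels, at 10.04 and 16.2 FPKM and at 8.04 and 12.1 FPKM. The medians of the list were 0.03 under the basal label and -0.14 under the luminal label.

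Of 23 cofactors and chaperones, all above 0, only Trps1 passed the fold with baicalin. It was lower under both labels, against 3.33% of all genes under the basal label and 1.59% under the luminal label. Trps1, a GATA-type repressor of the luminal lineage, had 33.8 and 15.1 FPKM in the basal-labelled libraries and 32.1 and 14.6 FPKM in the luminal-labelled ones. The AP-2 factor Tfap2c had 43.7 and 30.0 FPKM under the luminal label and 13.5 and 16.6 FPKM under the basal label. The list medians were 0.00 under the basal label and -0.12 under the luminal label. Of 9 relatives of the transcription regulators only 4 were above 0 in all libraries, and none passed the fold. Gata5 was at 0 throughout, and Cited2, a widely expressed relative of Cited1, was at 58.9 and 69.8 FPKM and at 32.6 and 43.5 FPKM with DMSO and baicalin.

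Of 12 other genes known from hormone-sensing luminal cells 9 were above 0 in all libraries, with medians of -0.03 and 0.13. Past the fold under the basal label 2 were higher and 3 lower, against 2.15% and 3.33% of all genes. Under the luminal label 1 was higher and 0 lower, against 2.37% and 1.59% of all genes. Under the basal label Ly6d (103 and 31.2 FPKM), the stem and luminal cell antigen Prom1 (12.7 and 3.72 FPKM) and Ly6a, which encodes Sca1 (50.6 and 23.2 FPKM), were lower with baicalin, and Stc2 (6.70 and 23.5 FPKM) and the EGF receptor ligand Areg (63.2 and 158 FPKM) were higher. Under the luminal label Ly6a was higher, at 28.0 and 78.1 FPKM. Areg, an oestrogen target that mediates ductal growth, was higher beyond counting error there too, at 21.4 and 37.5 FPKM. Wnt4, a paracrine target of progesterone, was at 0.745 and 1.48 FPKM under the basal label and at 1.38 and 2.91 FPKM under the luminal label, beyond counting error both times. Spdef, a luminal ETS factor, had 0.874 and 0.105 FPKM in the luminal-labelled libraries.

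Of 30 oestrogen response genes 26 were above 0 in all libraries, with medians of -0.10 and 0.00. Past the fold under the basal label 2 were higher and 2 lower, against 2.15% and 3.33% of all genes. Under the luminal label 0 were higher and 3 lower, against 2.37% and 1.59% of all genes. The 3 genes lower under the luminal label were the transcription factor Myb (20.8 and 3.90 FPKM), the Ras-like growth inhibitor Rerg (5.20 and 0.993 FPKM) and the cytokine receptor Il17rb (5.73 and 1.33 FPKM). These 3 genes had their highest level in the luminal-labelled DMSO library, as had Foxa1 and Cited1 but also Nr3c2, Oxtr and Csn3. They were picked by their drop from that library, so a peak there is partly built in. Myb was also lower under the basal label, at 1.40 and 0.116 FPKM, as was the early growth response gene Egr3, at 4.95 and 1.92 FPKM. Stc2 and Areg, given above, were the 2 that were higher, and the secreted trefoil factors Tff1 and Tff3 were at 0 in all 4 libraries.

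Of 12 progesterone response genes 11 were above 0 in all libraries, with medians of 0.14 and 0.17. Past the fold under the basal label 2 were higher and 1 lower, against 2.15% and 3.33% of all genes. Under the luminal label 0 passed it in either direction, against 2.37% of all genes higher and 1.59% lower. Besides Areg, the inhibitor of DNA binding Id4 was higher under the basal label, at 3.23 and 9.45 FPKM. The kinase gene Sgk1, also a target of the glucocorticoid receptor, was lower under the basal label (146 and 57.9 FPKM) and had 68.8 and 121 FPKM under the luminal label. Klf9, a Krüppel-like factor induced by steroid hormones, was higher beyond counting error under both labels, at 12.4 and 20.4 FPKM and at 11.2 and 22.7 FPKM.

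Downstream of Prlr, 12 of 17 prolactin signalling genes were above 0 in all libraries, with medians of 0.04 and -0.15. Past the fold under the basal label 1 was higher and 2 lower, against 2.15% and 3.33% of all genes. Under the luminal label 0 were higher and 1 lower, against 2.37% and 1.59% of all genes. Elf5, an alveolar transcription factor, was at 14.9 and 5.63 FPKM under the basal label and at 6.51 and 3.18 FPKM under the luminal label. The casein gene Csn3 was lower past the fold under both labels, at 2.67 and 0.546 FPKM and at 4.54 and 0.0933 FPKM. Another casein gene, Csn1s1, is not in these counts because it was at 0 in the basal-labelled baicalin library. It had 141 and 0 fragments under the basal label (1.14 and 0 FPKM). Under the luminal label it had 431 and 13 fragments (3.56 and 0.101 FPKM). Among the feedback inhibitors of cytokine receptors, Socs2 was higher past the fold under the basal label, at 5.14 and 11.7 FPKM. Under the luminal label it was higher beyond counting error but not past the fold, at 3.60 and 4.84 FPKM. Cish was higher beyond counting error under both labels, at 1.962 and 4.29 FPKM and at 1.53 and 3.30 FPKM, and Socs3 was lower beyond counting error, at 15.1 and 10.5 FPKM and at 41.7 and 37.0 FPKM. The kinase gene Jak2 lay between 12.1 and 14.6 FPKM and was within counting error under both labels. Stat5a and Stat5b were higher beyond counting error under the basal label and lower under the luminal label.

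The 10 genes around RANKL were all above 0, with medians of 0.06 and 0.00. Past the fold under the basal label 0 were higher and 1 lower, against 2.15% and 3.33% of all genes. Under the luminal label 0 passed it in either direction, against 2.37% of all genes higher and 1.59% lower. The gene lower was Elf5, which is also a RANKL target. Tnfrsf11a, the receptor RANK, had 1.91 and 2.002 FPKM in the basal-labelled libraries and 2.18 and 1.36 FPKM in the luminal-labelled ones. Tnfrsf11b, the decoy receptor osteoprotegerin, had 46.3 and 22.8 FPKM under the basal label, just inside the fold, and 2.05 and 2.70 FPKM under the luminal label. The NF-κB subunits Relb (7.19 and 13.7 FPKM) and Nfkb2 (20.2 and 36.3 FPKM) were higher beyond counting error under the luminal label.

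**Figure D5:**
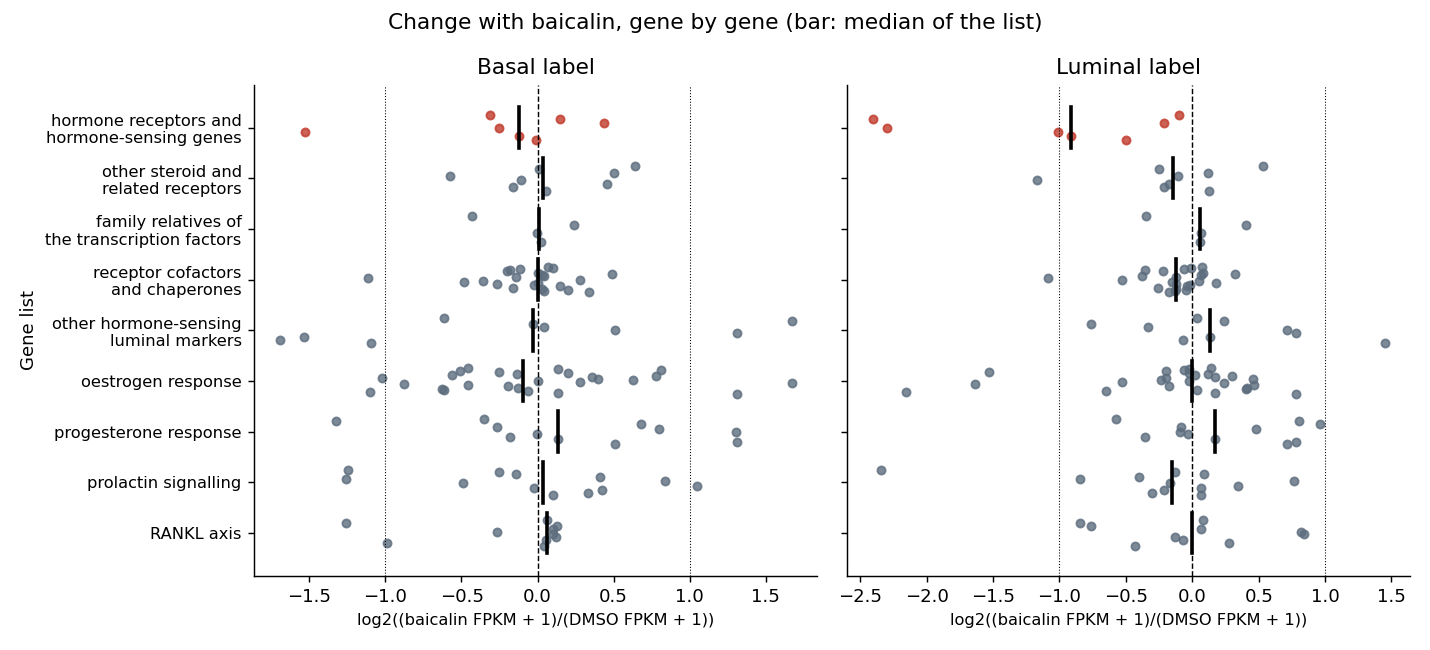
Change with baicalin (log2 of the ratio of FPKM + 1) of each gene in the set and in 8 related lists, in the basal-labelled libraries on the left and the luminal-labelled ones on the right, with a bar at the median of each list and dotted lines at a change of 1. The members have medians of -0.12 under the basal label and -0.91 under the luminal label. The medians of the other lists in the figure lie between -0.15 and 0.17 over both labels, a range that includes -0.12 but not -0.91. The epithelial marker lists are not in this figure and had lower medians. Under the basal label these were -0.94 for alveolar, -0.65 for basal and -0.55 for luminal keratin and epithelial markers. Under the luminal label they were -0.49, -0.16 and -0.33.

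The protein-coding genes nearest to each steroid receptor in profile were found among 11260 genes with at least 100 fragments in a library, by the distance between centred log2(FPKM + 1) values over the 4 libraries. For Esr1 these were the calcium channel gene Orai3 (distance 0.0117), the Polycomb gene Rnf2 (0.0314) and Paip2 (0.0458), an inhibitor of translation. For Pgr they were Spn (0.0782), the kinase gene Stk26 (0.101) and the integrin gene Itga11 (0.104). With 4 libraries many genes have like profiles, and the distances describe these libraries only.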

How the data were processed

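The values analysed were FPKM for 54446 genes in 4 libraries, 1 per condition. Per the study's methods, the authors enriched mRNA with oligo (dT), prepared stranded libraries, mapped reads with HISAT2 to GRCm38 (Ensembl annotation), counted fragments per gene with featureCounts and deposited FPKM, with no other scaling named. The submitters' processing notes also name Bowtie 0.12.2 and mm8, for which no role is given. How the counting treated strand is not given in the sources used here, so values of genes that overlap an antisense gene are uncertain.

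Exon lengths and positions came from GENCODE M21 on GRCm38 for 54409 genes. The product of FPKM and exon length took whole-fragment steps, from which came each library's depth (19356082 to 20648770 fragments) and each gene's fragments. Between 99.0% and 99.2% of low values came out whole. Exact 95% intervals were computed from these fragments, Clopper-Pearson for ratios and Poisson for levels, and no count test was run. Intervals of the differences of log2 ratios used a normal approximation with the Poisson variance of log counts. Changes were log2 ratios with a pseudocount of 1 FPKM on the 17787 genes above 0 in all 4 libraries, the study's own filter, and a change of 1 on the log2 scale was the threshold. The t-test of the study's methods needs replicates and could not be run.

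The members, the 8 related lists, the marker lists and the motifs were chosen with earlier results of these data known. Of each list, the 3 genes with the largest change per baicalin comparison were selected for naming, together with the members, the cell markers and the genes nearest to Esr1 and Pgr in profile; not all of these are described, and Nr3c1, Esr2, Gata5, Wnt4, Tff1, Tff3, Egr3, Jak2, Socs3, Stat5a, Stat5b and Tnfrsf11a were added after their values were seen. Values of some listed genes are not reported here. Overlapping genes were read from the annotation, and transcripts sharing at least 200 bases at 95% identity or more were found with BLAST 2.17.0. Alternatives were a pseudocount of 0.1 or none, no filter or at least 10 fragments, scaling to TPM and centring on the median ratio. The computation was tested on simulated data. Values were computed in Python 3.11.15 with scipy 1.17.1, numpy 2.4.6 and pandas 2.3.3, and plotted with matplotlib 3.10.9. The study's libraries of E2 + PG treatment were not analysed here.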

Additional observations from a re-analysis of the deposited data

Results flagged for a closer look

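Of the 141 listed genes above 0 in all libraries, markers included, 29 moved in opposite directions with baicalin under the 2 labels, each time beyond counting error. With 1 library per condition this difference between the labels was not tested. The share of all genes that moved in this way was not computed, so the count of 29 has no background beside it. Taken singly, 28.1% of all genes were higher and 26.3% lower beyond counting error under the basal label. Under the luminal label 22.9% were higher and 28.7% lower. Gata3 was the only member among the 29, and it changed by 0.44 on the log2 scale under the basal label and by -0.21 under the luminal label, a difference (luminal minus basal) of -0.65. Of the others, 6 changed by more than 0.5 under both labels, a limit set after the data were seen. Ly6a, which encodes Sca1, changed by -1.09 and 1.45, a difference of 2.54. Sgk1 changed by -1.32 and 0.80, a difference of 2.13. The basal keratin Krt17 changed by -1.19 and 1.67, a difference of 2.86. The alveolar marker Aldh1a3 changed by -0.82 and 1.79, a difference of 2.60. The macrophage lysozyme Lyz2 changed by -1.63 and 0.92, a difference of 2.56. The fibroblast collagen Col1a1 changed by -0.91 and 0.58, a difference of 1.49.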

How the results depend on the processing

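No paired analysis was possible because the labels carry no replicate numbers and each condition has 1 library, and for the same reason no replicate could be left out. The counts past the fold over all genes depended on the pseudocount and on scaling to TPM. Under the basal label (383 higher and 592 lower as reported) they were 1123 and 1302 with a pseudocount of 0.1, 1693 and 2054 without one and 696 and 1002 on TPM. Under the luminal label (421 and 282) they were 1052 and 913, 1559 and 1537, and 718 and 578 in the same order. Between the labels they were 2027 and 1467, 2872 and 1926, and 1306 and 1279 with DMSO (837 and 686 as reported), and 2030 and 1327, 2632 and 2003, and 1439 and 1083 with baicalin (932 and 531). Among the members, Prlr and Greb1 were the 2 lower under the basal label with a pseudocount of 0.1 or none, and without one Cited1 was the 1 higher, on 2 and 6 fragments. With baicalin, 2 members were higher between the labels at a pseudocount of 0.1 (Cited1 and Pgr) and 3 without one (Greb1 too), and 1, Prlr, was lower at 0.1, without one and on TPM. Under the luminal label Pgr joined Cited1, Foxa1 and Prlr in these 3 settings, which made 4 lower. After centring on the median ratio Prlr dropped out there, which left 2 lower. Gata3, just past the fold between the labels with DMSO, dropped out on TPM and after centring, which left 3 higher. A larger pseudocount shrinks the change of low genes by construction, and the cause of the difference on TPM was not tested. With no filter, with at least 10 fragments in each library, which leaves out Cited1, and after centring, the counts over all genes stayed within 1.5 times those reported. None of the 7 members changed sign under any of these alternatives. Depth limited Tnfsf11 and the basal-labelled values of Cited1, and with no repeated culture no difference could be set against biological variation.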
